A study of Mus musculus with 169 samples.

Results

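Genes of the proteasome were followed in microglia, the resident macrophages of the brain, sorted from mice that lack progranulin (the gene Grn) and from wild-type mice. The members were all genes with a symbol of the form Psma, Psmb, Psmc, Psmd, Psme, Psmf or Psmg plus a number, pseudogenes left out. Of 51 such symbols, 50 had a probe on the array, and all 50 were tested among 31920 features. Of these 50, Psmc3ip and Psme3ip1 share the naming pattern but are not counted as proteasome subunits. They are described apart from the role groups below, but counts and medians over all members include them. The 4 groups were KO (Grn-/-) mice of 16 months (4 arrays), WT (Grn+/+) mice of 16 months (4 arrays, counted as 2 replicates for the likeness of their values given below), KO mice of 4 months (3 arrays) and WT mice of 4 months (4 arrays). All mice were on a C57B/6J background, and cells were taken from Percoll gradients by flow sorting on CD11b, CD45 and Ly6G. The labels do not say how many mice stand behind an array, so p-values measure the spread between these samples, which may be partly technical. Arrays of cortex, hippocampus and cerebellum in the same series were not used here.

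The proteasome degrades proteins that carry ubiquitin chains. Its core particle is a barrel of stacked rings, with outer rings of alpha subunits (Psma genes) and inner rings of beta subunits (Psmb genes), and Psmb5, Psmb6 and Psmb7 encode the catalytic beta subunits of most cells. A regulatory particle of ATPases (Psmc genes) and non-ATPase subunits (Psmd genes) caps the barrel, unfolds the substrate and removes its ubiquitin. Under interferon-gamma, and in many immune cells without it, Psmb9, Psmb10 and Psmb8 take the places of Psmb6, Psmb7 and Psmb5. The particle so formed is the immunoproteasome, which favours peptides that fit MHC class I molecules.

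The promoters of the constitutive catalytic genes Psmb5 and Psmb6 and of their immunoproteasome counterparts Psmb8 and Psmb9 are shown because these pairs moved in opposite directions in the arrays. Each window runs from 250 bases before to 50 bases after the annotated start, 5′ to 3′, in the RefSeq annotation of GRCm38.p6. Capitals mark the core of the antioxidant response element (TGACNNNGC, the site type of the factors Nfe2l1 and Nfe2l2) in Psmb5 and Psmb6. In Psmb8 they mark the gamma-activated site (TTCNNNGAA) and in Psmb9 a CCAAT box, read on the opposite strand.
Psmb5 promoter (chr14:54617946-54618245, minus strand): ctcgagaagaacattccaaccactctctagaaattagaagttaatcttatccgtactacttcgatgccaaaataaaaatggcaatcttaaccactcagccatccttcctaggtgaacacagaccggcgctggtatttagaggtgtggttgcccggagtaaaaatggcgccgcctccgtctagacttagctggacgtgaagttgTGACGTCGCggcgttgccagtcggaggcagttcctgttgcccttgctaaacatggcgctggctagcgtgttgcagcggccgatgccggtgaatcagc
Psmb6 promoter (chr11:70525107-70525406, plus strand): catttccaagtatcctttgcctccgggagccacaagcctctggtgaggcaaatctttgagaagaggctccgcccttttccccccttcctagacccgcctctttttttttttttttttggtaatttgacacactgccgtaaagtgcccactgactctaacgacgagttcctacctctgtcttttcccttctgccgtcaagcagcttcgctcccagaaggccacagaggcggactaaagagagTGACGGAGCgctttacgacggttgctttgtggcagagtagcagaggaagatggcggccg
Psmb8 promoter (chr17:34197945-34198244, plus strand): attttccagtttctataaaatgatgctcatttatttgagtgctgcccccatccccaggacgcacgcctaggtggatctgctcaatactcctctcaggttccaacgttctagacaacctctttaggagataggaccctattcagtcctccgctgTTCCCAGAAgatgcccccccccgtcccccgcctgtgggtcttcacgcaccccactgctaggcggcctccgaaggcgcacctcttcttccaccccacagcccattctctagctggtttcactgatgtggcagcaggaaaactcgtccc
Psmb9 promoter (chr17:34187281-34187580, minus strand): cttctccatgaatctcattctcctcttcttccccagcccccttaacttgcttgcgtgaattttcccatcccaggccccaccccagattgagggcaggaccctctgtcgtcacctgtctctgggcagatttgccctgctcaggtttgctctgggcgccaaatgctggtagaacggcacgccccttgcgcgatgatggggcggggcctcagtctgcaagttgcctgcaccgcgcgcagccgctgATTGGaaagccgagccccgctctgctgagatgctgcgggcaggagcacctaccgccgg

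The marked letters began 47 bases before the start of Psmb5, 9 before that of Psmb6, 97 before that of Psmb8 and 8 before that of Psmb9. Promoter windows were given for 42 members, and both strands were searched. The antioxidant core stood in 6 of the 42 windows (14.3%), against 14% of the windows of all 27025 genes with one. The gamma-activated site was in 3 (7.14%), against 9.55% of all genes, and CCAAT in 16 (38.1%), against 41.1%. The core of the interferon-stimulated response element (GAAANNGAA) was in 7 (16.7%), against 9.76%. For the antioxidant core, the gamma-activated site and CCAAT the members' share was close to that of all genes. The interferon core was in 0 of the 3 immunoproteasome windows. It was in 1 of the 23 windows (4.35%) of members that were higher in KO at 16 months. Of members not called it was in 6 of the 16 windows (37.5%). In these sets, in that order, the antioxidant core was in 3 (13%) and 3 (18.8%) and CCAAT in 10 (43.5%) and 4 (25%). For the gamma-activated site it was 1 (4.35%) and 1 (6.25%), and these splits were not tested. A match is only these letters in this window.

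The level of a gene was the log2 of its brightest probe's signal over the array's 75th percentile, so that 0 is the 75th percentile, and the dimmest signals were set to a floor of -4.94. Levels are set against each other between samples. Where the value of 1 probe or gene group is subtracted from another's, only the change of that difference between samples is read. WT arrays 1 and 2 of 16 months differed from each other by a median absolute deviation of 0.13 on the log2 scale, and arrays 3 and 4 by 0.0945, against 0.384 to 1.28 in other pairs within a group, so each pair was averaged as 1 replicate, although the labels do not call them repeats. With all 15 arrays as separate samples, 29 members were higher and 3 lower at 16 months. The 75th percentile of the signal was 507 to 1037 on KO and 1010 to 1511 on WT arrays of 16 months, and 1072 to 1752 on KO and 1306 to 1649 on WT arrays of 4 months. Grn itself was at the floor on all 4 KO arrays of 16 months, against levels of 4.61 and 5.46 in the WT replicates, and at -3.36, -2.90 and -2.06 in KO replicates of 4 months, against 6.13 to 6.32 in WT (limma, adjusted p = 3.75e-07 at 16 months). Every KO replicate thus lay below every WT replicate in Grn. The sample titles give each age a code of its own and each genotype a number of its own, without saying what these stand for. Each age may thus have been a batch of its own. Age and the code, and genotype and the number, cannot be told apart.

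At 16 months the proteasome genes were mostly higher in the KO samples of sorted microglia, whose makeup also differed from that of WT (below). Of 50 members, 26 rose and 3 fell (limma, adjusted p under 0.05 over all features). Among all features, 19.3% were called higher and 15% lower. The median difference of the members was 1.11 on the log2 scale, against 0.122 over all features. In 32 members every KO replicate lay above every measured WT replicate, an arrangement seen in 24.3% of all features. Psmd12, 1 of these, had a value in only 1 WT replicate. In 3 members every KO replicate lay below, as in 17.9% of all features. Bright features were called more often: 40 of the 50 members were in the brightest of 5 equal classes, where 31.1% of features were higher and 18.8% lower, and of these 40 members 23 rose and 2 fell. With quantile normalization the split was 19 higher and 6 lower among members, and without WT replicate 1-2 of 16 months 17 were higher. Without WT replicate 3-4 or without KO replicate 1 only 1 was lower. A fit to the 16-month arrays alone, with fewer samples to estimate the spread, called 9 members higher and 0 lower. Over 13 fits that each left out 1 replicate, 16 of the 26 higher members and 0 of the 3 lower ones kept their call throughout.

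**Figure D1:**
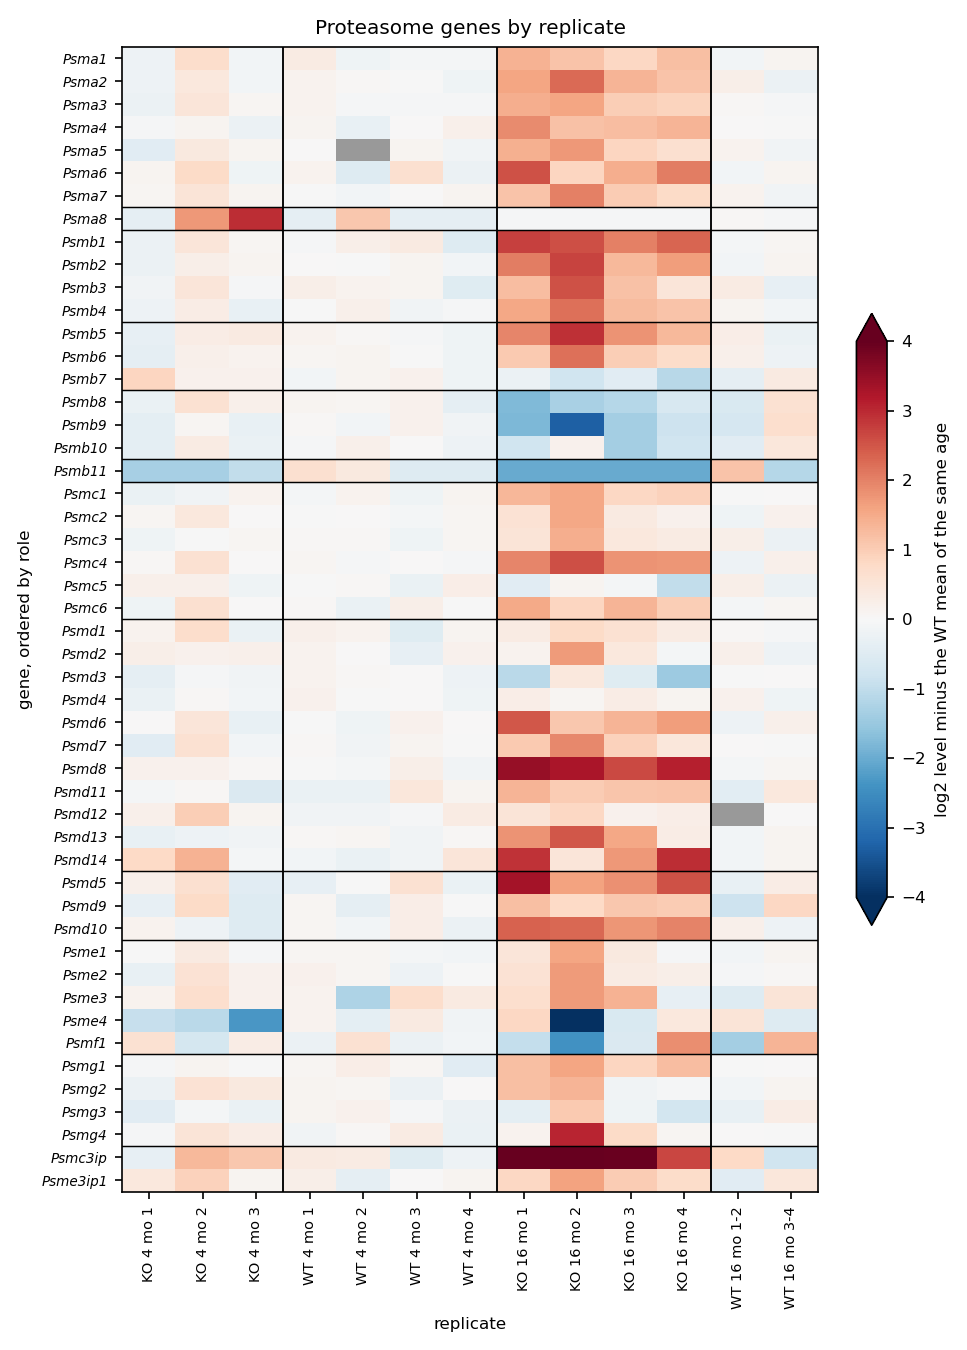
Colour gives each member's log2 level in a replicate minus the WT mean of the same age, clipped at 4, with genes in rows by role and replicates in columns, and grey marks a replicate without a usable spot. The 4 KO columns of 16 months are red over most rows and blue at Psmb8, Psmb9, Psmb11 and, more faintly, Psmb7. Rows of Psmb10, Psmc5, Psmd3 and Psmg3 are blue in all but KO replicate 2, some of them faintly, and Psmf1 in all but replicate 4. The 4-month columns are mostly pale, with stronger colours in rows of low signal such as Psma8 and Psme4.

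Most genes of the constitutive core particle rose. Of its 14 genes (Psma1 to Psma7 and Psmb1 to Psmb7), 12 were higher in KO at 16 months, as were 19.3% of all features. The median difference was 1.38, or 2.60-fold. With quantile normalization the median was 0.62. All 7 alpha subunits rose, by 1.14 (Psma1) to 1.72 (Psma6) in the probes used, and a second probe of Psma4 gave 3.76 where the one used gave 1.41. With quantile normalization the calls of Psma1, Psma3, Psma4, Psma5 and Psma6 were lost (adjusted p = 0.346, 0.0514, 0.0805, 0.153 and 0.108). The calls of Psma1, Psma5, Psma6 and Psma7 were lost without 1 or both WT replicates of 16 months (highest adjusted p = 0.132, for Psma5), and that of Psma5 also without KO replicate 1 (adjusted p = 0.051). For Psma5 the value at 4 months rests on 3 WT replicates, because 1 WT spot was marked as an outlier. Psma8, the alpha subunit of the testis, was not well above background on any KO array of 16 months, against 2 of 4 WT arrays, and was so on 3 of 3 KO and 1 of 4 WT arrays of 4 months.

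The non-catalytic beta subunits had a median difference of 1.74, against 1.24 for the alpha subunits, and Psmb1 led them. Their single genes overlapped with the alpha subunits in size, and a difference between these groups was not tested. Its log2 level was 6.995, 6.84, 6.28 and 6.58 in the 4 KO replicates, against 4.18 and 4.34 in the WT replicates. The KO replicates stood together, far above both WT replicates. Psmb1 was 5.33-fold higher (log2 difference 2.41 ± 0.30 SE, limma, adjusted p = 0.00031), and leaving out any 1 replicate kept the call. Psmb2 rose by 1.93 and Psmb4 by 1.54. The difference of Psmb3 was 1.35 and just missed the threshold (limma, adjusted p = 0.0506), with KO replicate 4 the closest to WT.

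The 3 constitutive catalytic genes did not move together in the probes used, and Psmb6 and Psmb7 rest on 1 probe each. Psmb5, the chymotrypsin-like site, had levels of 7.36, 8.34, 7.23 and 6.70 in KO replicates, against 5.67 and 5.17 in WT replicates. Psmb6, the caspase-like site, had 7.59, 8.72, 7.51 and 7.27 in KO replicates, against 6.75 and 6.32 in WT replicates. In both genes KO replicate 2 was the highest and no KO value reached down to WT. Psmb5 rose 3.97-fold (log2 difference 1.99 ± 0.39 SE, limma, adjusted p = 0.00329), and a second probe of the gene gave 2.48. Psmb6 rose 2.36-fold (1.24 ± 0.36 SE, limma, adjusted p = 0.0222). The call of Psmb6 was lost without WT replicate 1-2 (adjusted p = 0.0504) and without WT replicate 3-4 (adjusted p = 0.142). Psmb7, the trypsin-like site, had levels of 0.24, -0.32, 0.02 and -0.63 in KO replicates, against 0.10 and 0.84 in WT replicates. The groups overlapped, and the difference of -0.64 ± 0.31 SE did not pass (limma, adjusted p = 0.13).

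The immunoproteasome genes went the other way. Their median difference was -1.21, and 2 of the 3 fell, as did 15% of all features. The median was -1.81 without WT replicate 1-2 and -0.61 without WT replicate 3-4. Psmb8, the counterpart of Psmb5, had levels of 2.52, 2.96, 3.14 and 3.63 in KO replicates, against 3.67 and 4.87 in WT replicates. Psmb9, the counterpart of Psmb6, had 1.43, -0.02, 1.89 and 2.42 in KO replicates, against 2.57 and 3.92 in WT replicates. In both genes all KO values lay below WT, but the highest KO value (replicate 4) came close to the lower WT one (replicate 1-2). The fitted level of Psmb8 in KO was 0.433 of that in WT (log2 difference -1.21 ± 0.39 SE, limma, adjusted p = 0.0359). For Psmb9 it was 0.285 of WT (-1.81 ± 0.57 SE, limma, adjusted p = 0.0325).

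Both calls rest on few samples. Without WT replicate 3-4 the difference was -0.61 for Psmb8 (adjusted p = 0.341) and -1.13 for Psmb9 (adjusted p = 0.273). Psmb8 also missed the threshold without KO replicate 1 (adjusted p = 0.0742), 2 (0.058) or 3 (0.0571) of 16 months, or without KO replicate 3 of 4 months (0.0502), and Psmb9 without KO replicate 1 (0.0563). Psmb10, the counterpart of Psmb7, had levels of 4.08, 5.02, 3.50 and 4.05 in KO replicates, against 4.41 and 5.31 in WT replicates. KO replicate 2 lay between the WT values, and the difference of -0.70 ± 0.39 SE did not pass (limma, adjusted p = 0.198). It passed without KO replicate 2 (-0.98, adjusted p = 0.035) and with quantile normalization (-1.25, adjusted p = 0.00812). With the 75th percentile taken over detected probes, Psmb10 (-1.01, adjusted p = 0.0401) and Psmb7 (-0.95, adjusted p = 0.038) both passed.

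**Figure D2:**
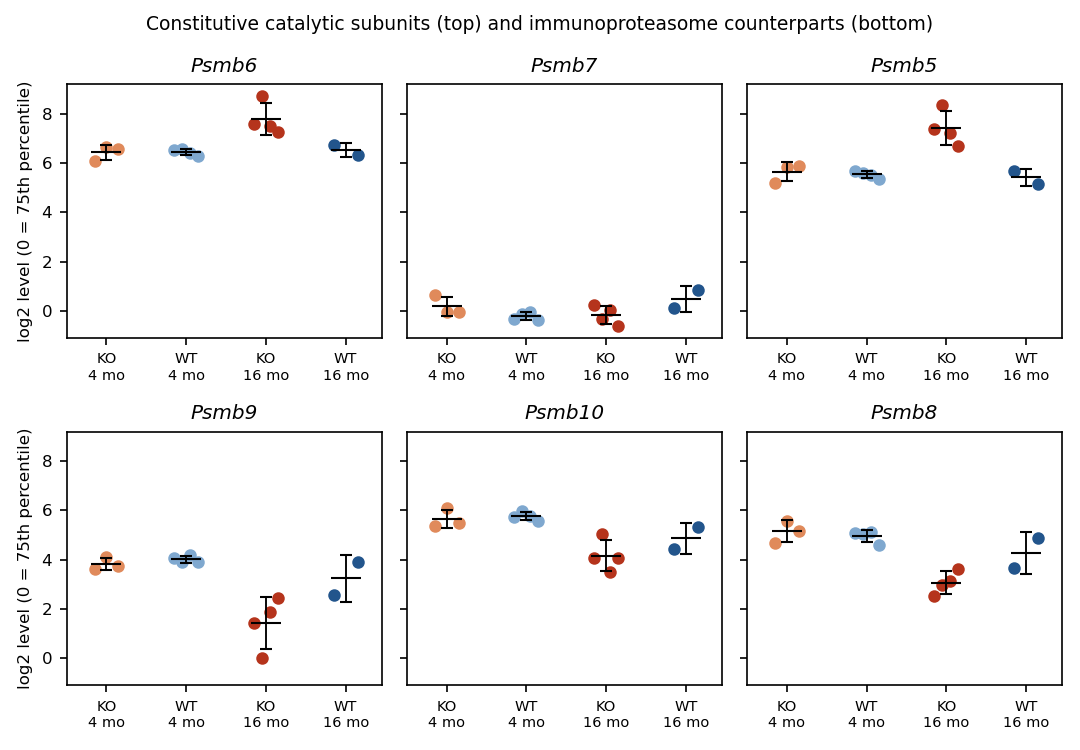
Points are replicates, with mean and SD as black bars, and the vertical axis is the log2 level, where 0 is the array's 75th percentile. The top row holds constitutive catalytic genes and the bottom row the immunoproteasome gene that replaces each; at 16 months Psmb6 and Psmb5 are higher in KO and Psmb9 and Psmb8 lower, and Psmb7 and Psmb10 overlap.

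Psmb11, the catalytic subunit of the thymus proteasome, was called lower at the edge of detection. It was at the floor in all 4 KO replicates of 16 months, against -1.76 and -4.07 in WT replicates. The WT replicates themselves were far apart. The fitted difference was -2.03 ± 0.54 SE (limma, adjusted p = 0.0151), with the KO value set by the floor. Without WT replicate 1-2 the difference was -0.87 (adjusted p = 0.169).

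The catalytic pairs were also compared within each array, where the scaling cancels. Psmb8 minus Psmb5 was -4.85, -5.38, -4.09 and -3.07 on the KO replicates of 16 months, against -1.999 and -0.30 on the WT replicates. Psmb9 minus Psmb6 was -6.15, -8.74, -5.62 and -4.84 on KO replicates, against -4.18 and -2.41 on WT replicates. In both pairs every KO replicate lay below both WT replicates. The mean shift was -3.20 for Psmb8 minus Psmb5 (exact permutation test, two-sided, p = 0.0667, the smallest that 15 arrangements allow) and -3.05 for Psmb9 minus Psmb6 (exact p = 0.133). Over the 3 pairs at 2 ages neither passed after Benjamini-Hochberg adjustment (exact permutation, adjusted p = 0.343), and at 16 months this design cannot reach 0.05. Psmb10 minus Psmb7 was 3.83, 5.34, 3.48 and 4.68 on KO replicates, against 4.31 and 4.47 on WT replicates. The WT values lay inside the KO range (shift -0.06, exact permutation p = 1), and the sign of this shift turned when single replicates were left out (-0.39 to 0.23).

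At 4 months the KO minus WT shifts of Psmb8 minus Psmb5 and Psmb9 minus Psmb6 were smaller in size than at 16 months. That of Psmb10 minus Psmb7 was larger. Psmb8 minus Psmb5 was -0.52, -0.26 and -0.73 on KO replicates, against -0.78 to -0.38 on WT replicates. The ranges of KO and WT replicates overlapped in all 3 pairs. The shifts were 0.08 for Psmb8 minus Psmb5 (exact permutation p = 0.6), -0.18 for Psmb9 minus Psmb6 (exact p = 0.257) and -0.51 for Psmb10 minus Psmb7 (exact p = 0.171), where 35 arrangements allow a p of 0.0286.

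**Figure D3:**
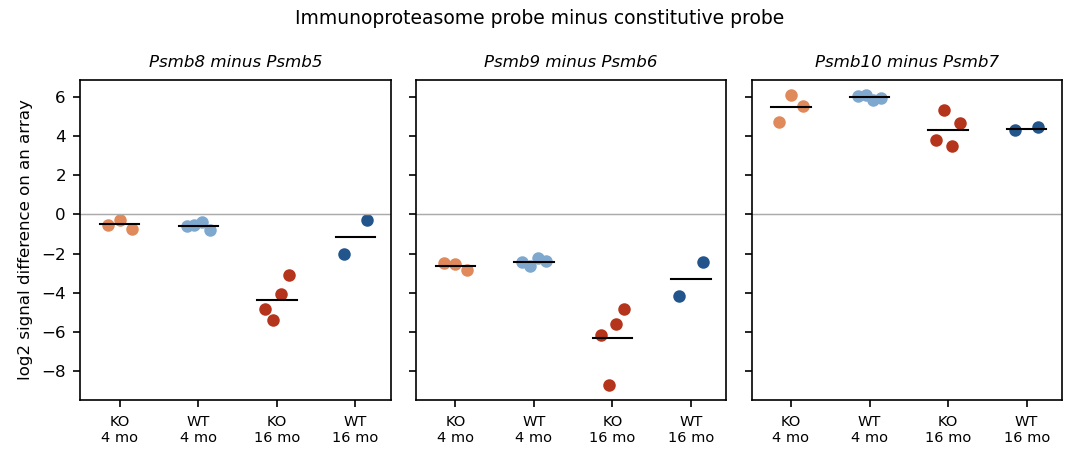
Points give the log2 signal of an immunoproteasome probe minus that of its constitutive counterpart on the same replicate, and lines give group means. In the first pair the KO replicates of 16 months lie between -5.38 and -3.07 and the WT replicates at -1.999 and -0.30, and in the third pair the groups overlap.

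The regulatory particle rose in part. Of its 17 subunit genes, 9 were higher in KO at 16 months and none lower, where 19.3% of all features were higher and 15% lower. The median difference was 1.08, or 2.12-fold. With quantile normalization the median was 0.38, and the calls of Psmc6 (adjusted p = 0.156) and Psmd7 (adjusted p = 0.159) were lost. Of the 6 ATPases of the base, Psmc1, Psmc4 and Psmc6 rose, by 1.16, 2.02 and 1.18. Psmc2 and Psmc3 differed by 0.66 and 0.68 and Psmc5 by -0.35, without passing. A second Psmc3 probe gave 1.76, and the mean of both probes passed (1.22, adjusted p = 0.00346). Of the 11 non-ATPase subunits, Psmd6, Psmd7, Psmd8, Psmd11, Psmd13 and Psmd14 rose, the last being the deubiquitinase of the lid (log2 difference 2.01). The calls of Psmd7, Psmd11, Psmd13 and Psmd14 were lost without WT replicate 1-2 (adjusted p = 0.146, 0.133, 0.116 and 0.147), those of Psmd7, Psmd13 and Psmd14 without WT replicate 3-4 (0.156, 0.0706 and 0.107), those of Psmd7 and Psmd14 without KO replicate 1 (0.0717 and 0.0701) and that of Psmd14 without KO replicate 4 (0.0607). Psmd7 kept its call in 3 of the 13 such fits. The ubiquitin receptor Psmd4 (0.19) and the scaffold genes Psmd1 (0.50) and Psmd2 (0.55) did not pass. Psmd12 (0.45) was fitted with 1 WT replicate of 16 months, since both spots of the other were marked as outliers. The differences of Psmc2, Psmc3, Psmd4 and Psmd12 were below 0 with quantile normalization, under which Psmc5 (-0.79, adjusted p = 0.0364) and Psmd3 (-1.15, adjusted p = 0.0119) were called lower.

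In the probes used, Psmd8, a lid subunit with 1 probe, had the largest shift of any subunit gene. The second probe of Psma4 gave a larger value (3.76). Levels of Psmd8 were 5.91, 5.70, 5.09 and 5.55 in KO replicates, against 2.35 and 2.53 in WT replicates of 16 months. At 4 months they were 2.04, 2.04 and 1.92 in KO replicates, against 1.75 to 2.11 in WT replicates. The KO replicates of 16 months stood alone, and all other replicates lay between 1.75 and 2.53, with those of WT at 16 months above those of 4 months. Psmd8 was 8.73-fold higher at 16 months (log2 difference 3.13 ± 0.22 SE, limma, adjusted p = 3.6e-05) and kept its call in each alternative that was run.

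Some assembly helpers rose as well. Psmd5, Psmd9 and Psmd10 encode chaperones that guide the base together, and Psmd5 (2.33) and Psmd10 (2.10) rose, with 1.02 for Psmd9 (limma, adjusted p = 0.104). A second probe of Psmd10 gave 0.45 and one of Psmd9 gave 2.57, so the sizes depend on the probe. The Psmd9 difference was 0.18 without WT replicate 1-2 (adjusted p = 0.84) and 1.85 without WT replicate 3-4 (adjusted p = 0.0115). Of the core chaperones Psmg1 to Psmg4, Psmg1 rose by 1.22. Psmg2 (0.60), Psmg3 (-0.07) and Psmg4 (1.00) did not pass, and the Psmg4 value leaned on KO replicate 2, at 5.41 against 2.45 to 3.14 in the other KO replicates.

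None of the 5 activator and inhibitor genes was called. Psme1 and Psme2 encode the interferon-induced activator that caps the core in place of the regulatory particle. Psme1 had levels of 5.09, 6.20, 4.99 and 4.57 in KO replicates, against 4.52 and 4.71 in WT replicates. Psme2 had 6.95, 8.08, 6.69 and 6.62 in KO replicates, against 6.34 and 6.40 in WT replicates. KO replicate 2 was the highest in both, and the Psme1 groups overlapped. The differences were 0.60 ± 0.36 SE for Psme1 (limma, adjusted p = 0.229) and 0.72 ± 0.39 SE for Psme2 (limma, adjusted p = 0.178), and both were below 0 with quantile normalization (-0.11 and -0.04). A second Psme2 probe gave 1.90, and the mean of both probes passed (1.31, adjusted p = 0.0085). For Psme4, a nuclear activator, the probe used gave -0.91 and the other 1.84, so no direction can be given. It was the 1 gene of 11 with a second probe whose probes disagreed in sign.

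**Figure D4:**
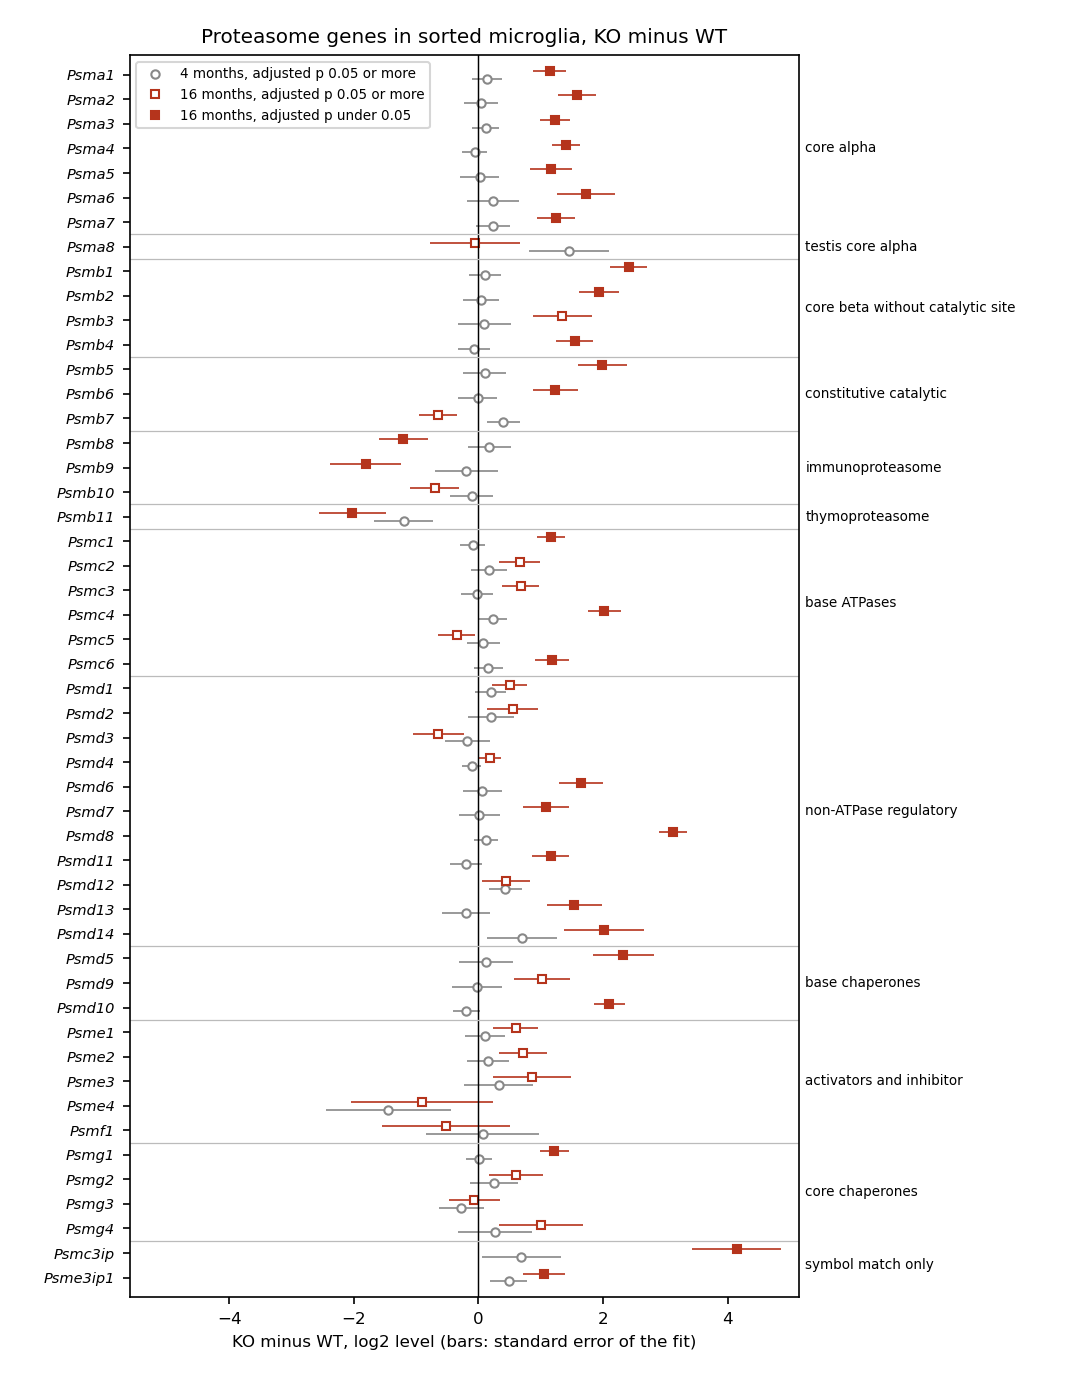
Symbols give KO minus WT on the log2 scale with the standard error of the fit, squares for 16 months and circles for 4 months, filled where the adjusted p is under 0.05. The constitutive core lies mostly between 1.14 and 2.41 at 16 months and near 0 at 4 months, Psmb8, Psmb9 and Psmb11 lie below 0, and no 4-month symbol is filled.

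Psmc3ip and Psme3ip1, which match by symbol, both rose. Psmc3ip, known for its part in meiotic recombination, had levels of 4.73, 4.82, 3.74 and 2.46 in KO replicates, against 0.57 and -1.002 in WT replicates of 16 months. All KO replicates lay above WT, with replicate 4 the lowest (log2 difference 4.15 ± 0.72 SE, 17.7-fold, limma, adjusted p = 0.00178). Psme3ip1 rose by 1.05 ± 0.34 (SE; limma, adjusted p = 0.0355), and its call was lost in 4 of the 13 fits without 1 replicate. Its difference was then 0.61 without WT replicate 1-2 of 16 months (adjusted p = 0.307), 0.86 without KO replicate 2 (0.0581), 1.06 without KO replicate 3 (0.059) and 1.05 without WT replicate 3 of 4 months (just over 0.05). Both genes are counted among the 50 members above.

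No proteasome gene was called at 4 months, and the median difference of the members was 0.10. Among all features 5 (0.0157%) were higher and 3 (0.0094%) lower. At an unadjusted p under 0.05 there were 2 members, the testis subunit Psma8 (1.45) and Psmb11 (-1.20), both near the floor. In 1 member, Psmb7, every KO replicate lay above all WT replicates (5.01% of all features), and in 2, Psmb11 and Psme4, every KO replicate lay below (6.68% of all features). The constitutive core had median levels of 4.98, 5.58 and 5.26 in KO replicates, against 4.97 to 5.30 in WT replicates. KO replicate 2 was the highest of the 7, and the groups overlapped.

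The KO minus WT difference itself changed with age in 14 members, all larger at 16 than at 4 months (limma interaction, adjusted p under 0.05, where 6.84% of features were called higher and 6.51% lower). They included 7 of the 14 constitutive core genes, 4 of the 17 regulatory genes and 0 of the 3 immunoproteasome genes. The steepest among subunit genes, in the probes used, were Psmd8 (3.00) and Psmb1 (2.31). For Psmb8 the change with age was -1.39 (adjusted p = 0.106) and for Psmb9 -1.61 (adjusted p = 0.184), so a change with age was not shown for them. Without KO replicate 1 of 4 months 6 members were called, without KO replicate 3 of that age 7, without any 1 of WT replicates 1 to 3 of 4 months 8, without WT replicate 1-2 of 16 months 8, and without WT replicate 3-4 of 16 months 9.

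The genes that work with the proteasome moved less uniformly. Of 35 partners (ubiquitin genes and ligases, shuttles, deubiquitinases, regulators), 6 rose and 3 fell at 16 months, with a median of 0.32, and these shares were not above those of all features. The ligases Ube3a (2.45) and Stub1 (1.90), the redox protein Txnl1 (2.05) and the proteasome phosphatase Ublcp1 (1.05) had the largest rises. Among those that fell were the proteasome's ubiquitin receptor Adrm1 (-1.96) and the heat shock regulator Hsf1 (-1.79). Nfe2l1, the factor that drives proteasome genes when the proteasome is inhibited, was dim and differed by 1.89 without passing (limma, adjusted p = 0.201), and Nfe2l2 by 0.46 (limma, adjusted p = 0.371).

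Genes of the interferon-gamma response and of class I processing were lower, where they were called, in KO at 16 months. Of 15, none rose and 6 fell, where 19.3% of all features rose and 15% fell. The median was -0.77, against 0.122 over all features. Irf1, an interferon-induced factor, fell by 3.22, the receptor subunit Ifngr1 fell by 3.12, the myeloid factor Irf8 fell by 2.72 and the receptor subunit Ifngr2 fell by 1.33. Jak1 and the peptide transporter Tap2 also fell. B2m (0.19) and H2-K1 (-0.59), which encode parts of class I molecules, did not pass. At 4 months none of the 15 was called.

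The makeup of the samples also differed at 16 months. Of 10 microglia markers, 8 were lower in KO, as were 15% of all features. Their median difference was -2.84, although all 10 were above background on all 15 arrays. The summed linear signal of the 10, in units of the 75th percentile, was 191 to 516 on KO replicates, against 899 to 1499 on WT replicates. Of 8 choroid plexus markers, 4 were higher in KO and none lower, where 19.3% of all features were higher and 15% lower. Their sums were 917 to 1645 on KO replicates, against 343 to 586 on WT replicates. On the KO replicates the choroid plexus median exceeded the microglia marker median by 1.95 to 5.52. On the WT replicates of 16 months the same difference was -3.46 and -0.37. At 4 months the microglia sums overlapped (1224 to 1969 on KO, 1267 to 1639 on WT), and the choroid plexus sums did not (182 to 288 on KO, 10.9 to 127 on WT). Sums of 7 neutrophil markers ran from 0.587 to 251 on KO replicates, against 81.7 to 369 on WT replicates of 16 months. Of these 7, 1 was called higher and 0 lower, with a median difference of -3.36. Sums of the red blood cell genes Hba-a1 and Hbb-bs ran from 0.777 to 12.9, against 0.173 to 0.274. Astrocyte (32.4 to 71.5, against 27.4 to 29.4) and T and NK cell sums (0.553 to 1.75, against 0.317 to 0.51) were also higher throughout in KO. Oligodendrocyte (10.3 to 12.81, against 12.84 to 20.4) and B cell sums (0.136 to 0.448, against 1.43 to 1.94) were lower throughout. The neutrophil marker Cxcr2 was at the floor in both groups of 16 months.

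In KO replicates 1, 2, 3 and 4 of 16 months the median level of the microglia markers was 1.93, 2.64, 3.86 and 4.64. On the same replicates the immunoproteasome median was 2.52, 2.96, 3.14 and 3.63, and the constitutive core median 6.72, 6.94, 6.18 and 6.31. The immunoproteasome median was the Psmb8 level on each of these replicates. The other genes did not keep its order: Psmb9 was lowest on replicate 2 (-0.02) and Psmb10 on replicate 3 (3.50). In bulk samples fewer cells of a type and less RNA per cell cannot be told apart, and the part of these markers in the proteasome results was not tested.

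**Figure D5:**
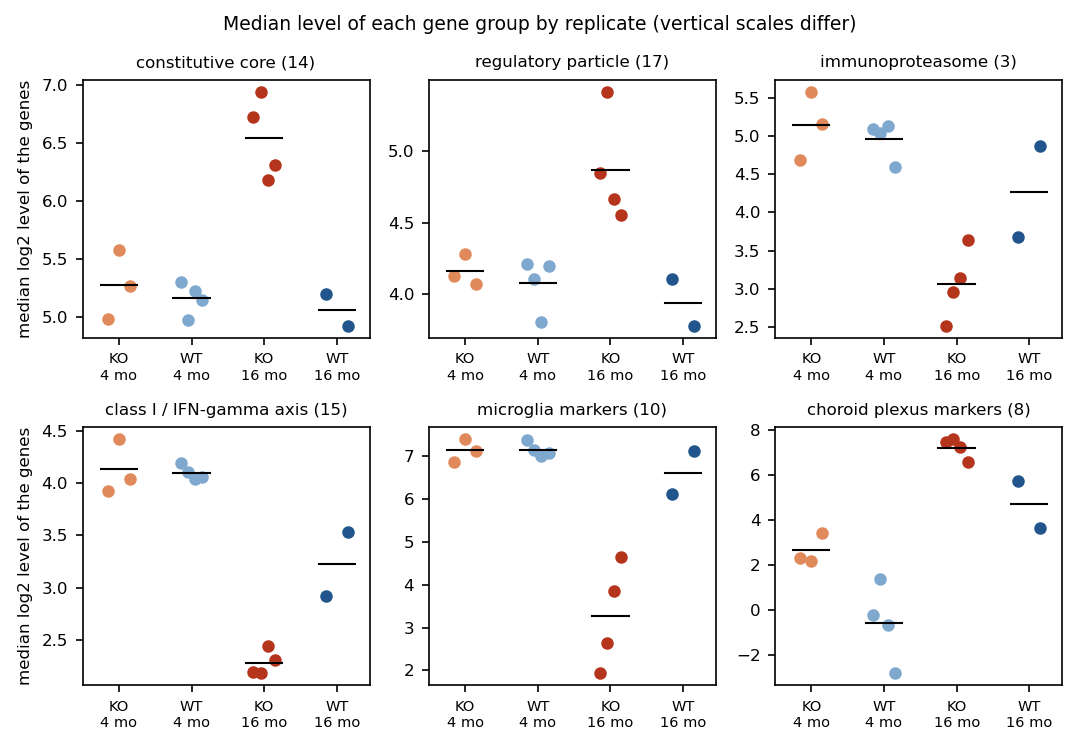
Points give the median log2 level of a gene group in each replicate, lines the group means, with the number of genes in brackets and a vertical scale of its own in each panel. At 16 months the constitutive core lies at 6.18 to 6.94 in KO and 4.92 to 5.20 in WT, and the immunoproteasome, interferon-gamma axis and microglia markers are lower in KO.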

How the data were processed

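Microglia RNA was measured on 15 single-colour Agilent arrays (Cy3). The values used are the deposited processed intensity of each spot, background-subtracted per the file headers (Feature Extraction 10.7.3.1), and R 2.15.3 is a further tool in the submitters' processing notes. Here each intensity was divided by the array's 75th percentile over non-control spots, repeat spots were averaged without outlier spots, values under a floor of 0.0325 were set to it, and log2 was taken. Probes well above background on at least 3 arrays were kept (45606 of 55681), and the brightest probe stood for its gene. Gene symbols came from matching the probes' accessions to RefSeq.

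WT arrays 1 and 2, and 3 and 4, of 16 months were averaged, which left 13 replicates. One mean per genotype and age was fitted with limma 3.58.1 in R 4.3.3 (two-sided moderated tests, Benjamini-Hochberg over all features, threshold 0.05). The script was tested on simulated data. Differences within an array were compared by exact permutation. Precision is limited by the number of arrays. Alternatives were the scaling, quantile normalization, normexp (offset 50) on median spot signals since mean signals are not among the columns, the dim-probe filter, the mean over probes, the replicate block, separate arrays, single ages and leaving out replicates. Replicate numbers were not taken as pairs.

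Values per replicate are given for Psmb5 to Psmb10, Psme1, Psme2 and, among called members, the 3 with the largest rise and fall. Of the partner and interferon lists at most 4 per direction are given with values. Members and lists were chosen with earlier results of these data known. Differences of other members are given by role group. Bead arrays of brain tissue were not used here.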

Additional observations from a re-analysis of the deposited data

Results flagged for a closer look

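In 14 members the KO minus WT difference at 16 months exceeded that at 4 months (limma interaction, adjusted p under 0.05). The excess on the log2 scale was 1.54 for Psma2, 1.11 for Psma3, 1.47 for Psma4, 2.31 for Psmb1, 1.90 for Psmb2, 1.61 for Psmb4 and 1.89 for Psmb5 in the core particle. In the regulatory particle it was 1.25 for Psmc1, 1.79 for Psmc4, 3.00 for Psmd8 and 1.36 for Psmd11. Among helpers it was 2.30 for Psmd10 and 1.21 for Psmg1, and for Psmc3ip, which matches by symbol, it was 3.46. Adjusted p-values lay between 0.000825 (Psmd8, limma) and 0.049 (Psma3, limma). Age and the code in the sample titles, and genotype and the number there, cannot be told apart.

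In 5 of 97 member groups of 4 replicates, 1 sample lay apart from the others by Dixon's criterion, where chance gives about 1 in 20. All 5 were WT replicates of 4 months. Replicate 1 was highest for Psma3 (6.93, others 6.74 to 6.77), and replicate 2 for Psma8 (-3.51, others at the floor) and Psmf1 (-0.96, others -1.81 to -1.68). Replicate 3 was lowest for Psmc3 (5.65, others 5.87 to 5.90) and Psmd1 (3.61, others 4.20 to 4.28). None of these genes was called at 4 months (limma).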

How the results depend on the processing

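Of the 26 members higher at 16 months, 5 (Psmd8, Psmb1, Psmd10, Psmc4 and Psmg1) were called in each of 22 alternatives, and of the 3 lower members 0 were. Fitting the 16-month arrays alone, with fewer samples, gave 9 members higher and 0 lower. Members lower were 5 with the 75th percentile over detected probes and 6 with quantile normalization, under which the median of the constitutive core was 0.62 and that of the regulatory particle 0.38. The median of all features was 0.122, and 0, 0.070 and 0.443 with the 75th percentile over detected probes, quantile normalization and normexp; the first of these gave 4632 features higher and 6079 lower, against 6166 and 4790. The replicate block, for a pairing that the labels do not establish, gave 20 members higher at 16 months (Psma6, Psmd7, Psmd11, Psmd13, Psmd14 and Psme3ip1 were lost) and 6 with a change between ages. Deviations of same-numbered replicates correlated between -0.109 and -0.0739 at 4 months and between 0.122 and 0.241 at 16 months, where with 2 WT replicates the values for other numbers are the same with the sign turned. Leaving out single replicates gave 17 to 26 members higher and 1 to 4 lower at 16 months, 6 to 16 members larger and 0 to 1 smaller at 16 than at 4 months, an immunoproteasome median of -1.81 to -0.61, shifts of -0.39 to 0.23 for Psmb10 minus Psmb7 at 16 months and of -0.043 to 0.193 for Psmb8 minus Psmb5 at 4 months. No called member changed sign in these fits. The number of arrays and, for Psmb11 and Psma8, signal near background limit these values. The alternatives planned for the bead arrays were not run, and the causes of these changes were not tested.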
